A study of Mus musculus with 12 samples.

Results

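The peaks of the histone variant H2A.Z in the nucleus accumbens were compared between mice given saline and then cocaine (SC, the list that the labels call acute) and mice given saline and then saline (SS, the list called saline). A peak was shared if it overlapped a peak of the other list by at least 1 bp, and SS-only or SC-only if it did not. On chromosomes 1 to 19 the SS and SC lists held 46774 of the 59069 peaks deposited for the 4 conditions. The SS list held 24190 peaks, of which 18295 were shared and 5895 were SS-only. The SC list held 22584 peaks, of which 18358 were shared and 4226 were SC-only. A gene was counted as a promoter gene of a list if a peak assigned to it had its middle within 1000 bp of the transcription start site (TSS), which gave 13281 genes in SS and 12583 in SC.

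Chromatin of mouse nucleus accumbens, the part of the ventral striatum that takes in dopamine from the midbrain, was immunoprecipitated with an antibody against H2A.Z in 12 samples, 3 for each sequence of 2 treatments. The other conditions, cocaine then saline (CS, called withdrawal) and cocaine then cocaine (CC, called challenge), share a cocaine history and served here as further lists. By the labels, saline was the first treatment in both SS and SC. The labels name Brain as tissue and Nucleus accumbens as cell type, and they give no strain, sex, age, dose, interval or batch. They do not say that the 3 samples of a condition came from separate animals, nor whether reads were pooled before the peaks of a condition were called. Each condition has 1 list with no values per sample, so no comparison below has a replicate error or a test, and each interval (95%, exact Clopper-Pearson) covers the counting of peaks or genes only. In a tissue of many cell types, H2A.Z in fewer cells and less H2A.Z per cell cannot be told apart.

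H2A.Z replaces histone H2A in a share of nucleosomes, above all in those that flank the nucleosome-poor start sites of genes. It is deposited by the SRCAP and TIP60-p400 remodelling complexes and is removed by INO80 and the chaperone Anp32e. In neurons its turnover at promoters has been linked to activity-dependent transcription and to memory. Striatal markers were present in both lists: 14 of 16 markers of striatal projection neurons had a promoter peak in SS and 13 of 16 in SC, while none of 5 microglial markers (Cx3cr1, P2ry12, Csf1r, Aif1 and Tmem119) had one in either list. Markers of the other cell types were partly marked, with 4 of 7 for interneurons in SS and 3 of 7 in SC, 3 of 4 and 2 of 4 for endothelium, and in each list 2 of 5 for astrocytes and 2 of 6 for oligodendrocytes.

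The promoters that carried some of the strongest peaks of 1 list only are shown first, since their CpG content and motifs are among the properties compared between the peak sets. The 250 bases upstream of the RefSeq start (assembly GRCm38.p6, the build called mm10) are printed for Orc1, Prokr1, Ube2c and Trim58 (SS-only) and for Cntfr, Stk31 and Rsrc2 (SC-only), each 5′ to 3′ on the strand of the gene. Capitals mark matches, on either strand, to any of 7 motifs: TGACGTCA (the cAMP response element), TGANTCA (AP-1), GGGCGG (Sp factors), CCGGAAG (ETS factors), CACGTG (E-box), TATAAA (the TATA box) and GCATGCGC (NRF1). Matches may overlap each other.
Orc1, chr4:108579204-108579453, + strand: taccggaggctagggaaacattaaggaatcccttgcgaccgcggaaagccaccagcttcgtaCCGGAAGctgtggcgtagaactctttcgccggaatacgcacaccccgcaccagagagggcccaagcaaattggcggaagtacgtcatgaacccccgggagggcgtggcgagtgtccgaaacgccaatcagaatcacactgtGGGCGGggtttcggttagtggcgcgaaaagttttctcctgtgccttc
Prokr1, chr6:87590744-87590993, - strand: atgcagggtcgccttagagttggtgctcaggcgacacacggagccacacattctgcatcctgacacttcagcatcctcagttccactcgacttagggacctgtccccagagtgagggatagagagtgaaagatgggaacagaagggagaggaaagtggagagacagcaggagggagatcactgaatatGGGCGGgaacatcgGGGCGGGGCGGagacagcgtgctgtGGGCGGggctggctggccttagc
Ube2c, chr2:164769679-164769928, + strand: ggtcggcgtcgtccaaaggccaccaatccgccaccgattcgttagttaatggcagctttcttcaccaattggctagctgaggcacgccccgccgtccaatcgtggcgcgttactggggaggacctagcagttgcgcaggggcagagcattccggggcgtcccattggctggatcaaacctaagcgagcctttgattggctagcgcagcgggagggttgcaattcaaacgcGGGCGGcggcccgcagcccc
Trim58, chr11:58640215-58640464, + strand: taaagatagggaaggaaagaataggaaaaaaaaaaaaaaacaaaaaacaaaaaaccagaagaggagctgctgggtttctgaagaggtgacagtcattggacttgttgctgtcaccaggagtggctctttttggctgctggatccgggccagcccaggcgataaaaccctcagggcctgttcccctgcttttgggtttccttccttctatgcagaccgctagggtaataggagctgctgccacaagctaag
Cntfr, chr4:41695926-41696175, - strand: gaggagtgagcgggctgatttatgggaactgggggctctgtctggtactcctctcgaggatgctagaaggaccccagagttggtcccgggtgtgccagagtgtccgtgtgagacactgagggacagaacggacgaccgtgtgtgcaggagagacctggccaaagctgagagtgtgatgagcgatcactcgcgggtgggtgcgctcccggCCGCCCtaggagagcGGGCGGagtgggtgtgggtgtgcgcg
Stk31, chr6:49395354-49395603, + strand: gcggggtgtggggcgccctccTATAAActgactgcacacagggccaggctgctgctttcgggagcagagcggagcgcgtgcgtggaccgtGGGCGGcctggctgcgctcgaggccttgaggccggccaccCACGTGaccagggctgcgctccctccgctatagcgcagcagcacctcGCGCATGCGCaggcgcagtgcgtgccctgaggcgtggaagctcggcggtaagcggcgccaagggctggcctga
Rsrc2, chr5:123749415-123749664, - strand: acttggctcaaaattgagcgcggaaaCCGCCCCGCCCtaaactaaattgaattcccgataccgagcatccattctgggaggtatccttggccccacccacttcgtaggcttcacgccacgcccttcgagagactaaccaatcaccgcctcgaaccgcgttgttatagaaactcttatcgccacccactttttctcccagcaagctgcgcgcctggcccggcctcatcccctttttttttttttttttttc
These windows held 22 CpG in Orc1, 10 in Prokr1, 23 in Ube2c, 3 in Trim58, 17 in Cntfr, 26 in Stk31 and 18 in Rsrc2. The Trim58 window had no match to any of the 7 motifs. The Stk31 window had matches to 4 of them, including the NRF1 palindrome. A match describes the letters in the window and is not a binding site.

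Peaks present in 1 list only were weak and narrow. SS-only peaks made up 24.4% of the SS list (23.8 to 24.9%) and SC-only peaks 18.7% of the SC list (18.2 to 19.2%). The authors' fold enrichment, a ratio of ChIP signal over the background of the peak caller, had a median of 3.36 in SS-only peaks and 5.01 in the shared peaks of the same list. In the SC list the medians were 3.18 for SC-only and 5.42 for shared peaks. Fold enrichment was ranked only within a list, since a common scale for SS and SC is not known. The median width was 435 bp for SS-only against 898 bp for shared SS peaks, and 416 bp for SC-only against 833 bp for shared SC peaks.

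Each list was then divided into 10 classes of equal size by fold enrichment. In the weakest class, 56.8% of SS peaks (54.8 to 58.8%) had no SC peak and 59.7% of SC peaks (57.7 to 61.7%) had no SS peak. The shares fell to 24.9% and 10.6% in the fifth class. In the seventh class they were 5.13% and 1.51%, and in the strongest class 1 of 2419 SS peaks and 0 of 2259 SC peaks lacked a partner (0 of 2259 allows a share of up to 0.163%, the upper bound of the exact interval). The strong peaks of saline and first cocaine were therefore nearly all at the same places, and the lists parted among the weak ones.

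**Figure D1:**
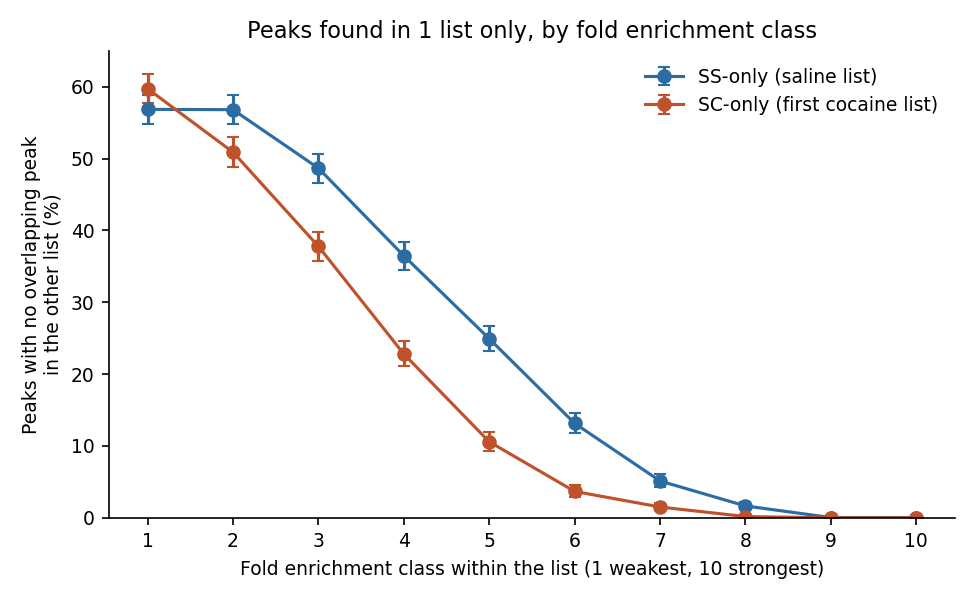
Share of peaks with no overlapping peak in the other list (vertical axis, %) in 10 classes of the authors' fold enrichment within each list (horizontal axis, 1 weakest); bars are 95% exact intervals for counting. Both curves fall from over 56% in the weakest class to 1 of 2419 SS peaks and 0 of 2259 SC peaks in the strongest.

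Because of this gradient, most properties below are set beside the shared peaks of the same list. Values for shared peaks were not reweighted where the text does not say so, as for median lengths and distances. Elsewhere the shared peaks were reweighted to the fold enrichment classes of the SS-only or SC-only peaks, and that value is called fold-matched. It equalises fold enrichment and not width: the mean width was 485 bp in SS-only and 639 bp in fold-matched shared peaks, and 465 against 580 bp in the SC list. Most unshared peaks lay far from the other list. The median gap to the nearest peak was 26926 bp for SS-only and 20986 bp for SC-only peaks. A gap of at most 500 bp was found for 446 SS-only peaks (7.57%) and 353 SC-only peaks (8.35%). At the edge of the rule, 24 SS-only and 18 SC-only peaks lay within 50 bp of a peak they did not touch, while 30 shared SS peaks and 25 shared SC peaks overlapped by under 50 bp.

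Of the 4838 SS peaks in the top 2 classes, 2 had no SC partner, and both were singled out here after their values were seen. The first, with a fold enrichment of 10.2, is assigned to the gene model Gm37988 at chr1:4807359-4808400. It and the peak of Mrpl15 (fold enrichment 6.68) are the 2 SS peaks that lie before the first SC peak of chromosome 1, at chr1:4857274-4858394. On the other 18 chromosomes, no SS peak outside the span of the SC peaks exceeded a fold enrichment of 4.99. Whether the SC list is complete at that end of chromosome 1 was not tested. The second, with 8.08, is the Orc1 peak, whose edge lies 17 bp from an SC peak that is assigned to the neighbouring gene Prpf38a and has a fold enrichment of 6.64. None of the 4517 SC peaks in the top 2 classes lacked an SS partner.

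In the full lists SS-only and SC-only peaks differed in their regions. When only the 10000 strongest peaks of each list were compared with each other, most of this difference was not present. In that setting, here and below, a peak or gene counts as SS-only or SC-only if it has no partner among the other list's 10000 strongest. A weaker peak of the other list may still overlap it. Promoter peaks were scarcer in both sets than among fold-matched shared peaks. In the full lists gene bodies were the largest class among SC-only peaks and intergenic sequence the largest among SS-only peaks. Gene bodies held 38.2% of SC-only peaks (36.7 to 39.7%), against 17.3% of fold-matched shared peaks. They held 21.4% of SS-only peaks (20.4 to 22.5%), against 17.2%. Intergenic sequence held 44.4% of SS-only peaks (43.2 to 45.7%, fold-matched 30.3%) and 35.2% of SC-only peaks (33.7 to 36.6%, fold-matched 27.8%). Promoters held 27.6% of SS-only peaks (26.5 to 28.8%, fold-matched 45.9%) and 19.1% of SC-only peaks (17.9 to 20.3%, fold-matched 48.1%). The flank between promoter and gene body or intergenic sequence, as the authors annotated it, held 6.51% of SS-only and 7.48% of SC-only peaks (fold-matched 6.70% and 6.79%).

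The share of peaks without a partner was also counted within each region. In promoters, 10.8% of SS peaks were SS-only and 5.66% of SC peaks were SC-only. In flanks these shares were 36.3% and 31.6%, in gene bodies 44.0% and 50%, and in intergenic sequence 50.1% and 36.4%. The excess of gene body peaks among SC-only peaks was present in each fold enrichment class with at least 50 SC-only peaks. In the weakest class 37.1% of SC-only and 16.4% of shared SC peaks were in gene bodies, in the second class 42.8% and 19.2%, in the fourth 35.1% and 18.1%, and in the sixth 28.9% and 7.40%. In SS the corresponding values were 18.3% and 16.7% in the weakest class and 16.7% and 7.95% in the sixth. With the 10000 strongest peaks of each list alone, the gene body share was 7.53% of SC-only peaks against 2.90% fold-matched and 7.99% of SS-only peaks against 3.13%, so the excess was no larger in SC than in SS. Intergenic sequence there held 13.9% of SC-only and 11.6% of SS-only peaks, the opposite order to the full lists, and promoters were the largest class of both, with 74.5% and 77.4%.

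**Figure D2:**
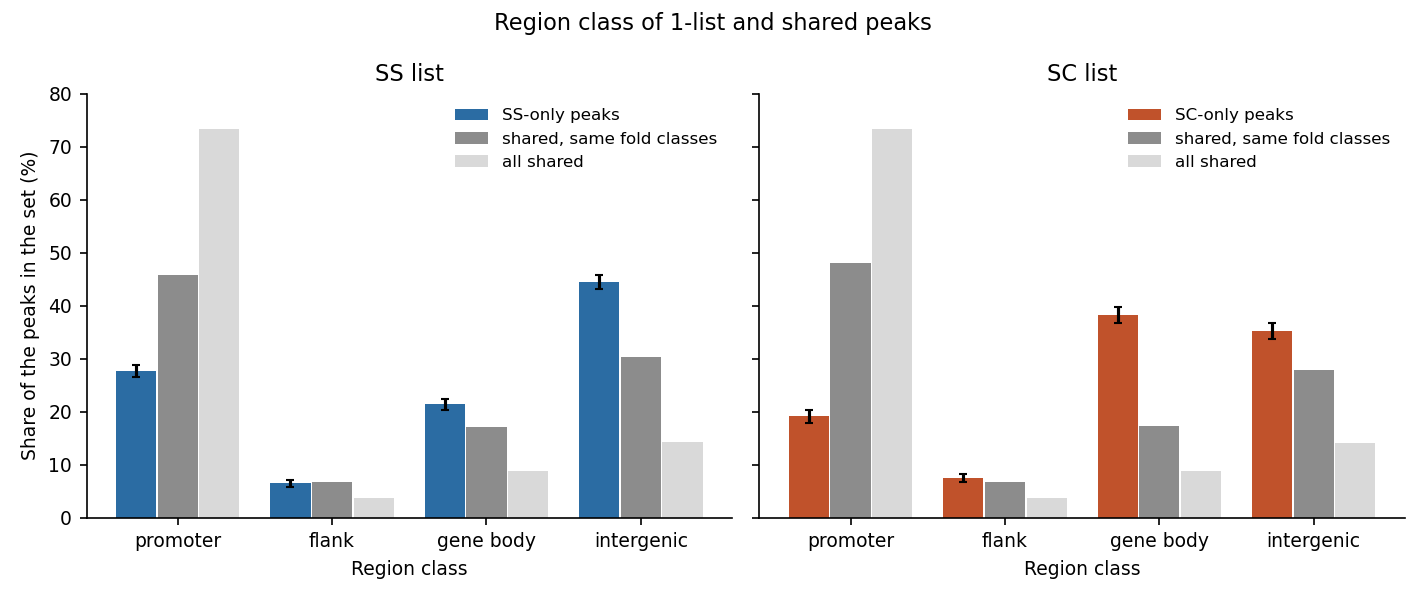
Share of peaks (vertical axis, %) in promoters, flanks, gene bodies and intergenic sequence for the SS list (left) and the SC list (right). Coloured bars are peaks of 1 list only with 95% exact intervals for counting, dark grey bars shared peaks of the same fold enrichment classes and light grey bars all shared peaks; the SC-only gene body bar reaches 38.2% beside 17.3%.

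SC-only gene body peaks lay mostly in protein-coding genes, and most of those genes also had a promoter peak. There were 1615 such peaks in 1206 genes, and 1263 SS-only gene body peaks in 1079 genes. Protein-coding genes held 87.4% of the SC-only peaks (fold-matched 78.6%) and 76.4% of the SS-only peaks (fold-matched 79.5%). The annotated transcript had a median length of 95.5 kb for SC-only peaks and 73.4 kb for SS-only peaks, and of 55.1 and 55.6 kb for the shared gene body peaks of each list. Transcripts of at least 100 kb held 48.5% of SC-only peaks (fold-matched 41.8%) and 41.8% of SS-only peaks (fold-matched 41.3%). A promoter peak in the same list was present for 70.4% of the genes with an SC-only gene body peak and for 56.6% of those with a shared gene body peak. In the SS list these shares were 56.3% and 60.01%.

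Some genes held several SC-only peaks. Among the 1206 genes with an SC-only gene body peak, 269 held more than 1 and 30 held at least 4. Among the 1079 genes with an SS-only gene body peak, 142 and 6 did so. These counts are not fold-matched and take no account of transcript length. The SC hosts named next have annotated transcripts of 294 kb (Msra) to 1478 kb (Magi2). The SC-only peaks of Msra lay between fold enrichments of 2.28 and 2.98, in the weakest class of the SC list. Cdh13, which encodes T-cadherin, an adhesion molecule anchored by a lipid, held 9 SC-only and 5 SS-only peaks. Camkmt, a methyltransferase of calmodulin, held 8 of its 9 SC gene body peaks without an SS partner, as did Msra, a methionine sulfoxide reductase. Snd1, a nuclease and transcriptional coactivator, held 7 SC-only peaks. The synaptic and adhesion genes Lsamp, Cdh4, Dscaml1 and Magi2, and the kinase gene Prkce, held 6 each. Dscaml1 also held 1 SS-only gene body peak, and the other 7 of these genes beside Cdh13 held none. On the saline side, Astn2, a protein of glial-guided neuronal migration, held 5 SS-only peaks, and the growth factor receptor gene Fgfr2 and the zinc finger gene Tshz2 held 4 each. The transcript annotated as Fgfr2 spans 2961 kb, so whether its peaks lie at the receptor gene itself is uncertain. All of these genes had a promoter peak in both lists. A total of 207 genes held both an SS-only and an SC-only gene body peak at different places, which is 19.2% of the SS genes and 17.2% of the SC genes.

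Genes of the pan-striatal marker list and of kinase signalling were among the hosts of SC-only gene body peaks, by few peaks each. Of all SC gene body peaks 50% were SC-only. The list of D1 and D2 medium spiny neuron markers held 0 gene body peaks in SC, and its 1 SS gene body peak, in Ebf1, was SS-only. The pan-striatal markers held 8 gene body peaks in SC, of which 7 were SC-only, where the share of their fold enrichment classes would give 5.46. They lay in Actn2, Rarb (2 peaks), Pde10a, Gnal, Meis2 and Foxp1, with fold enrichments from 2.63 in Gnal to 3.52 in Rarb. Rarb encodes a retinoic acid receptor, Pde10a the striatal phosphodiesterase, Gnal the G protein that couples striatal dopamine and adenosine receptors to adenylyl cyclase, and Foxp1 and Meis2 striatal transcription factors. The Pde10a peak, at chr17:8647339-8647788, lay 121 kb into the gene, and an SS-only peak with a fold enrichment of 5.29 lay 53947 bp away. In the list of MAPK and CREB signalling all 8 SC gene body peaks were SC-only (5.06 by fold enrichment class). Among them were 2 in Rasgrf2, a calcium-activated exchange factor for Ras, 2 in Rps6ka1 and 1 each in Rps6ka2 and Rps6ka5, kinases that act downstream of ERK, and 1 each in Mapk10 and Map2k1. Rasgrf2 also held 2 SS-only peaks, the nearer one 6568 bp from an SC peak. These were all of the SS gene body peaks of the list (1.18 by fold enrichment class).

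Ion channel and receptor genes did not share 1 direction. Potassium channel genes held 17 SC-only of 28 gene body peaks (13.5 by fold enrichment class), in Kcnma1, Kcnip4, Kcnd3 and others. They were also above that number in SS, with 11 SS-only of 22 (8.11). Glutamate receptor genes held 12 of 22 (10.6), of which 3 lay in the kainate receptor gene Grik4 and 2 each in Grik3 and the metabotropic receptor gene Grm5. Calcium and sodium channel genes were below the number by fold enrichment class, with 9 of 25 (11.7), as were genes of dopamine and cAMP signalling, with 5 of 11 (7.09), and immune genes, with 1 SC-only of 18 SC gene body peaks (6.03). Clock genes held 2 SC-only of 3 gene body peaks (0.825), in Per2 (3.40) and Rora (4.75). Immediate early genes held 1 SC gene body peak, which was SC-only (0.770). It lay in Homer1 (2.91), a scaffold that is induced by activity. Genes of cilia and flagella were above the number by fold enrichment class in both lists. They held 13 SS-only of 19 gene body peaks (8.41), among them axonemal dynein genes (Dnah3, Dnah8, Dnah11), and 10 SC-only of 16 (7.87). The strongest SC-only gene body peaks lay in Umodl1 (6.01), Tusc3 (5.72), Ctss (5.43), Ncan (5.27) and Senp7 (5.22). Ctss encodes cathepsin S and Ncan neurocan, a proteoglycan of the brain matrix. The strongest SS-only gene body peaks lay in Fbln7 (6.09), Msrb3 (5.80), Egln3 (5.61), Atp2c2 (5.42) and Mmp25 (5.32).

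Intergenic peaks of 1 list lay farther from genes than shared ones. On the 18 chromosomes for which RefSeq starts were at hand, 37.3% of SS-only intergenic peaks (35.4 to 39.3%) were more than 50 kb from any RefSeq start, against 28.8% fold-matched. For SC-only peaks the share was 32.9% (30.5 to 35.5%) against 27.4%. Within 10 kb of a start lay 19.8% of SS-only (fold-matched 26.4%) and 23.5% of SC-only intergenic peaks (fold-matched 28.0%). The median distance was 31.1 kb for SS-only and 27.7 kb for SC-only peaks, and 21.8 kb for shared peaks of either list. The strongest SS-only intergenic peak (6.56, chr15:35326433-35327078) also overlapped a CS peak, and the strongest SC-only intergenic peak (6.69, chr2:26648015-26648463) lay 7412 bp from the nearest SS peak.

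Within promoters, SC-only peaks were displaced from the start site. A middle within 100 bp of the TSS was found for 21.9% of SC-only promoter peaks (19.1 to 24.9%), against 29.5% of fold-matched and 47.9% of all shared peaks. For SS-only promoter peaks the share was 31.2% (29.0 to 33.6%) against 31.7% fold-matched and 48.8% of all shared peaks. From 500 to 1000 bp downstream lay 9.03% of SC-only peaks (7.15 to 11.2%, fold-matched 5.02%) and 8.47% of SS-only peaks (7.16 to 9.93%, fold-matched 5.21%). Upstream the lists differed. From 500 to 1000 bp upstream lay 12% of SC-only peaks (fold-matched 9.47%) and 7.67% of SS-only peaks (fold-matched 11.2%). The limit of 1000 bp itself cuts through a continuous distribution: of the 105 SC peaks just inside it 23.8% were SC-only and of the 92 just outside 15.2%, and in SS the shares were 39.8% of 128 and 28.3% of 106.

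**Figure D3:**
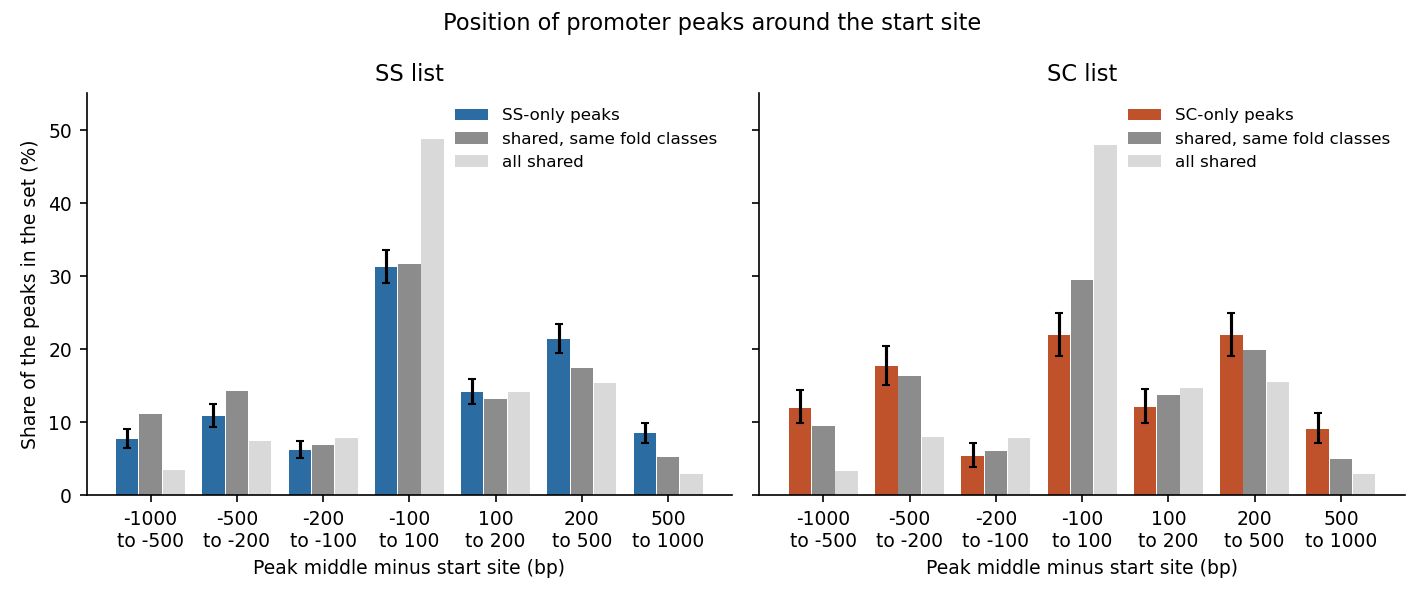
Position of promoter peaks, as peak middle minus start site in bp (horizontal axis, negative is upstream), with the share of peaks in each bin (vertical axis, %). Coloured bars with 95% exact intervals for counting are SS-only (left) and SC-only (right) peaks, dark grey bars shared peaks of the same fold enrichment classes and light grey bars all shared peaks; the bin around the start holds 31.2% of SS-only and 21.9% of SC-only peaks.

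The promoters under these peaks were poorer in CpG. A RefSeq window of 250 bases upstream to 50 downstream overlapped the peak for 508 SS-only and 122 SC-only promoter genes. It held 15.0 ± 7.52 CpG (SD over 508 genes) in SS-only genes, 17.5 in fold-matched and 24.5 in all shared genes. In SC-only genes it held 13.9 ± 9.72 (SD over 122 genes), against 17.2 and 24.7. Among all 31396 RefSeq promoters the mean was 12.6. The ETS letters CCGGAAG were in 8.27% of SS-only windows (6.02 to 11%), against 16.7% fold-matched and 9.0% of all promoters. The NRF1 letters GCATGCGC were in 1.57% of SS-only windows (0.682 to 3.08%), against 5.58% fold-matched and 2.70% of all promoters. The TATA box letters TATAAA were in 15.6% of SC-only windows (9.64 to 23.2%), against 7.56% fold-matched and 13.6% of all promoters. In SS-only windows they were in 9.84%, against 8.63% fold-matched. The AP-1 letters TGANTCA were in 12 of the 122 SC-only windows (9.84%, 5.19 to 16.6%), where the fold-matched share of 5.66% lies inside the interval, as does the 7.84% of all promoters. For the cAMP response element, found in 1.83% of all promoters, the shares were 2.17% of SS-only and 4.92% of SC-only windows, and the intervals (1.09 to 3.84% and 1.83 to 10.4%) included the fold-matched 3.14% and 3.47%. GGGCGG, in 36.0% of all promoters, was in 49.2% of SC-only windows (40.02 to 58.4%, fold-matched 59.9%) and 59.3% of SS-only windows (fold-matched 58.5%), and CACGTG, in 7.14% of all promoters, in 9.84% and 10.4% (fold-matched 9.22% and 9.28%).

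In the full lists, more promoter genes were held by the saline list alone than by the first cocaine list alone. A gene was called SS-only if no SC promoter peak bore its name and no SC peak overlapped any of its SS promoter peaks, and SC-only by the reverse. By this rule 1126 of 13281 SS promoter genes (8.48%) were SS-only and 414 of 12583 SC promoter genes (3.29%) were SC-only. With only the 10000 strongest peaks of each list compared with each other, the numbers were close, at 1022 SS-only and 988 SC-only genes. A gene can be SC-only in that setting and not in the full lists, where a weaker SS peak counts as a partner. By gene name alone the numbers were 1551 (11.7%) and 853 (6.78%). A peak between a pair of divergent genes can take either name, but how many of the added genes this concerns was not counted. SC-only promoter genes were less often protein coding: 230 of the 414, where the shares of their fold enrichment classes would give 315. Long intergenic RNA genes numbered 59 (37.5) and miRNA genes 10 (5.34). Among SS-only genes the counts followed fold enrichment, with 861 protein-coding (865) and 100 long intergenic RNA genes (99.9).

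The strongest SS-only promoter peak of a named gene was that of Orc1, a subunit of the origin recognition complex that licenses DNA replication (fold enrichment 8.08, chr4:108579341-108580125, 17 bp from an SC peak). Pmaip1, a p53 target that promotes apoptosis, followed with 7.10, then Mrpl15 of the mitochondrial ribosome with 6.68 and Prokr1, a prokineticin receptor, with 6.64 (chr6:87590237-87591188, 7 bp from the start). Ube2c, the ubiquitin-conjugating enzyme of the anaphase-promoting complex, and Trim58 had 6.09 each, and Phlda2, an imprinted gene, had 6.05. Nek5, Strip2 and Tmem114 had 6.04 each, Slc31a1, the copper importer, and Kcnj8, a subunit of ATP-sensitive potassium channels, 6.0 each, Aspm, a spindle protein, 5.95 and Edaradd 5.94. Of the 15 strongest peaks, those of Orc1, Pmaip1, Strip2 and Edaradd overlapped peaks of both CS and CC, that of Nek5 a CS peak and that of Slc31a1 a CC peak. The Slc31a1 peak lay 83 bp from an SC peak.

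The strongest SC-only promoter peak was that of Hoxa2, a homeobox gene of hindbrain patterning (7.86, chr6:52164172-52164623), 434 bp downstream of the start and 5264 bp from the nearest SS peak. Cntfr, the receptor subunit for ciliary neurotrophic factor, had 7.08 (chr4:41695704-41696075). Stk31, a kinase gene of the germ line, had 6.60, and Rsrc2, a serine-arginine-rich protein, had 6.17 with an SS peak 232 bp away. Tfap2c, a transcription factor of germ cells and trophoblast, had 5.72. Cdc34b, H2-Q5, Rbm4, Scamp3, Dmrtb1, Cdx2 and Pet100 shared a value of 5.53, Dapk3 had 5.25 and Sf3b4, a splicing factor, 5.10. Cdc34b and H2-Q5 have close copies in the genome, so their peaks are uncertain. Of the 15 strongest peaks only that of H2-Q5 overlapped a peak made after a cocaine history, in CC. These peaks were narrow: 11 of the 15 were under 500 bp wide, against 0 of the 15 strongest SS-only peaks. Over all promoter peaks the median width was 418 bp for SC-only and 500 bp for SS-only peaks.

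For comparison, the strongest shared promoter peaks lay at Nek9 (15.8 in SS and 15.5 in SC), Ext2 (15.3 and 17.0), Rab24 (15.0 and 14.3), Taf10 (14.9 and 14.3) and Selenoi (14.8 and 15.5). These genes serve mitosis, heparan sulfate synthesis, vesicle transport, basal transcription and phospholipid synthesis.

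Genes known for cocaine and activity responses mostly had a promoter peak in both lists. Fos (2.93 in SS and 3.04 in SC), Fosb (4.20 and 4.22), Arc (3.53 and 4.64), Egr1 (6.58 and 7.84) and Nr4a1 (5.62 and 5.89) were shared, each value standing in its own list's scale. So were Drd2 (10.9 and 13.6), Penk (7.65 and 11.4) and Tac1 (3.65 and 3.79). Npas4 had no promoter peak in either list. Drd1, the D1 dopamine receptor, had an SS-only promoter peak of 3.76 (chr13:54055015-54055758, 272 bp downstream of the start), and its nearest SC peak lay 15838 bp away. Pdyn, the prodynorphin gene of D1 neurons, had an SS-only peak of 3.48 and its nearest SC peak lay 100229 bp away. Bdnf, a neurotrophin, had an SS-only peak of 3.49, 625 bp upstream of the start. All 3 are in the weaker part of the SS list. Among SS promoter genes of the same fold enrichment class, 20.7% were SS-only for the class of Drd1 and 41.4% for that of Pdyn and Bdnf. Among all SS peaks, in promoters or elsewhere, 36.5% in the class of Drd1 and 48.7% in the class of Pdyn and Bdnf had no SC partner. Of the 23 immediate early genes with an SS promoter peak, 4 were SS-only (3.36 by fold enrichment class): Fosl1, Bdnf, Cyr61 and Dusp6. Of the 20 with an SC promoter peak, 2 were SC-only (0.777 by fold enrichment class): Per1 (3.44) and Junb (2.60). The Junb peak lay 961 bp from an SS peak. The dopamine transporter gene Slc6a3 had an SS-only promoter peak of 5.77 (chr13:73536232-73537055), with the nearest SC peak 66380 bp away.

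The 45 gene lists were then read against the fold enrichment of their members. For each list, the number of SS-only or SC-only genes is given with the number that the shares of the members' own fold enrichment classes would give, in brackets. The bracketed number is a description and not a test, and several lists share genes. In the saline list the largest excess was in cytokines, chemokines and immune receptors, with 31 SS-only of 121 genes (16.2), against 8.48% of all SS promoter genes. They included the class I genes H2-Q2 (5.80) and H2-Q4 (5.71), Tnfrsf13c (4.74), H2-DMa (4.62), the chemokine genes Cxcl12 (4.35) and Cxcl10 (3.48), and Cd44 (3.48). The H2-Q genes are near-identical copies, so the 4 among the 31 are uncertain. None of the 31 peaks lay within 500 bp of an SC peak. In the SC list 3 of 93 immune genes were SC-only (4.59). With the 10000 strongest peaks of each list the immune genes were above their bracketed number in both directions, with 15 of 57 (8.00) in SS and 11 of 52 (6.65) in SC.

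Genes of DNA replication and the cell cycle came next, with 19 SS-only of 129 (10.4). Besides Orc1 and Ube2c they were the centromere genes Cenpp (5.54), Cenpl (5.11), Cenpf and Cenpt, the helicase and replisome genes Mcm4 (4.82), Mcm2, Gins2 (4.56), Gins1 and Pcna (4.38), the mitotic kinases Cdk1 (3.88) and Aurkb (3.78), and Kif23, Kif14, Cdc25c, Ccnd1, Kif19a and Cdk15. Of these 19 peaks, 6 lay within 500 bp of an SC peak, and 13 (9.70) were left when such peaks counted as shared. In SC 1 of 110 was SC-only (2.58). With the 10000 strongest peaks of each list, 16 of 85 genes were SS-only (13.2), a smaller excess. The next list, of other developmental transcription factors, leaves out Hoxa2, Tfap2c, Cdx2 and Dmrtb1, which were SC-only. It had 16 SS-only genes (8.70), 14.04% of those with an SS promoter peak, among them Foxj1 (4.45), Tbx3 (4.16) and Irx6 (3.73). Of its 98 genes with an SC promoter peak, 0 were SC-only (1.42). When only the 10000 strongest peaks of each list were compared with each other, 2 of 80 were SS-only (6.77) and 10 of 88 SC-only (5.76). Since 0 of 98 were SC-only in the full lists, those 10 lacked a partner only among the strongest SS peaks.

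Lists of neurotransmitter receptors differed in how far they lay from the bracketed number. Genes of GABA receptors and synthesis were near it, with 2 SS-only of 16 (2.20). Glutamate receptor genes had 1 of 22 (2.77), too few genes to read a direction. Of 27 acetylcholine, serotonin and adrenergic receptor genes with an SS promoter peak, 9 were SS-only (3.13), among them Htr5b (4.99), Chrnb4 (4.72), Chrna3 (4.19), Adra2b (3.92), Htr2a (3.47), Htr1a (3.31), Chrna6 (3.29) and Adra2a (2.10). Chrna3 and Chrnb4 are neighbouring genes that encode subunits of the same nicotinic receptor. None of the 18 such genes in SC was SC-only (0.687). In the 10000 strongest peaks of each list the values were 3 of 13 (1.52) in SS and 1 of 11 (0.370) in SC. Of 12 genes in the list of striatal interneuron markers, 6 were SS-only (2.20): Cck (4.93), Npy (3.98), Slc5a7 (3.97), Calb2 (3.29), Slc18a3 (3.17) and Gad2 (2.39). Slc5a7 and Slc18a3 import choline and load acetylcholine into vesicles. Gad2 makes GABA and is also counted in the list of GABA receptors and synthesis. None of the 6 genes of the interneuron list with an SC promoter peak was SC-only. In the separate set of 7 interneuron markers, 4 had an SS promoter peak and 1 of these was SS-only. With only the 10000 strongest peaks of each list compared with each other, 1 of 6 genes of the interneuron list was SS-only (1.03). Pan-striatal markers had 0 SS-only of 13 (1.67) and 1 SC-only of 14 (1.15), the homeobox gene Meis2 (3.48), which also held an SC-only gene body peak.

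Other lists in excess on the saline side were secreted proteases and their inhibitors with 12 of 55 (6.84; Prss16, Adam33, Mmp2 and Klk8 led), apoptosis genes with 5 of 26 (1.86; Pmaip1, Casp6, Casp8, Casp1 and Tnfrsf10b), cadherins and protocadherins with 8 of 27 (4.14) and olfactory and vomeronasal receptors with 5 of 8 (1.14). With the 10000 strongest peaks the proteases were at 2 of 33 (2.66), the olfactory receptors at 0 of 3, the cadherins at 2 of 10 (1.17) and the apoptosis genes at 3 of 17 (1.91). Lists below their bracketed number were of several kinds, some of them by few genes. Small RNA genes had 2 SS-only of 59 (8.16). Postsynaptic scaffolds, with 2 of 31 (3.29), calcium and sodium channels, with 3 of 43 (4.08), and MAPK and CREB signalling, with 0 of 25 (1.12), were near theirs. Splicing factors had 1 SS-only of 137 (6.66), cytosolic ribosomal proteins 1 of 62 (6.51), mitochondrial ribosomal proteins 1 of 57 (4.52), the respiratory chain 1 of 54 (4.33), translation factors and tRNA synthetases 1 of 83 (3.90) and chromatin-modifying enzymes 1 of 92 (2.88). H2A.Z genes and those of its remodellers had 0 of 29 (2.32), and Zfp zinc finger genes 10 of 363 (22.5).

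SC-only promoter genes fell into other lists, several of them below the bracketed number in SS. Small RNA genes had 13 SC-only of 72 (5.01), against 3.29% of all SC promoter genes, and 2 SS-only of 59 (8.16). They were the miRNA genes Mir219a-2 (4.79), Mir484 (4.25), Mir1894, Mir8096, Mir7688, Mir344b and Mir1945, the small nucleolar RNA genes Snord49b (4.65), Snora78, Snord118 and Snora57, and Rnu3b3 (4.54) and Rny3. Several of these genes lie inside or beside longer genes, so the name on the peak is uncertain. Splicing factors had 7 SC-only of 149 (2.17): Rsrc2, Rbm4, Sf3b4, Ddx21 (4.36), Snrpn (3.88), Hnrnpa1 (3.80) and Celf3 (2.81). Respiratory chain genes had 5 of 64 (1.86): Ndufs7 (4.53), Atp5b (4.42), Ndufb4 (3.82), Sdhb (3.53) and Sdhc (3.13). With the 10000 strongest peaks of each list these values were 8 of 31 (4.31) for small RNA genes, 19 of 117 (15.9) for splicing factors and 11 of 44 (10.6) for the respiratory chain, and the small RNA genes on the saline side were at 5 of 29 (4.29).

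Histone genes were above the bracketed number in both directions, with 8 SC-only of 19 (1.71) and 8 SS-only of 22 (5.20). SC-only were Hist2h2aa1 (4.90), Hist1h2al (4.21), Hist1h2an (4.08), H3f3b (4.01), Hist2h2aa2, Hist1h4i, Hist4h4 and Hist3h2ba. SS-only were Hist1h2bh (5.02), Hist1h2bm (4.48), Hist1h4k, Hist2h2be, Hist1h1c, Hist1h2aj, Hist1h4c and Hist1h1e. Most of these are near-identical copies in tight clusters, so reads and names may be exchanged between them. The same limit holds for the cadherin genes, 5 SC-only of 24 (1.70), which were all of the gamma protocadherin cluster on chromosome 18 (Pcdhga6, Pcdhgb6, Pcdhga7, Pcdhga3 and Pcdhga4). Zfp genes had 2 SC-only of 359 (7.64), and were below the bracketed number in both directions.

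**Figure D4:**
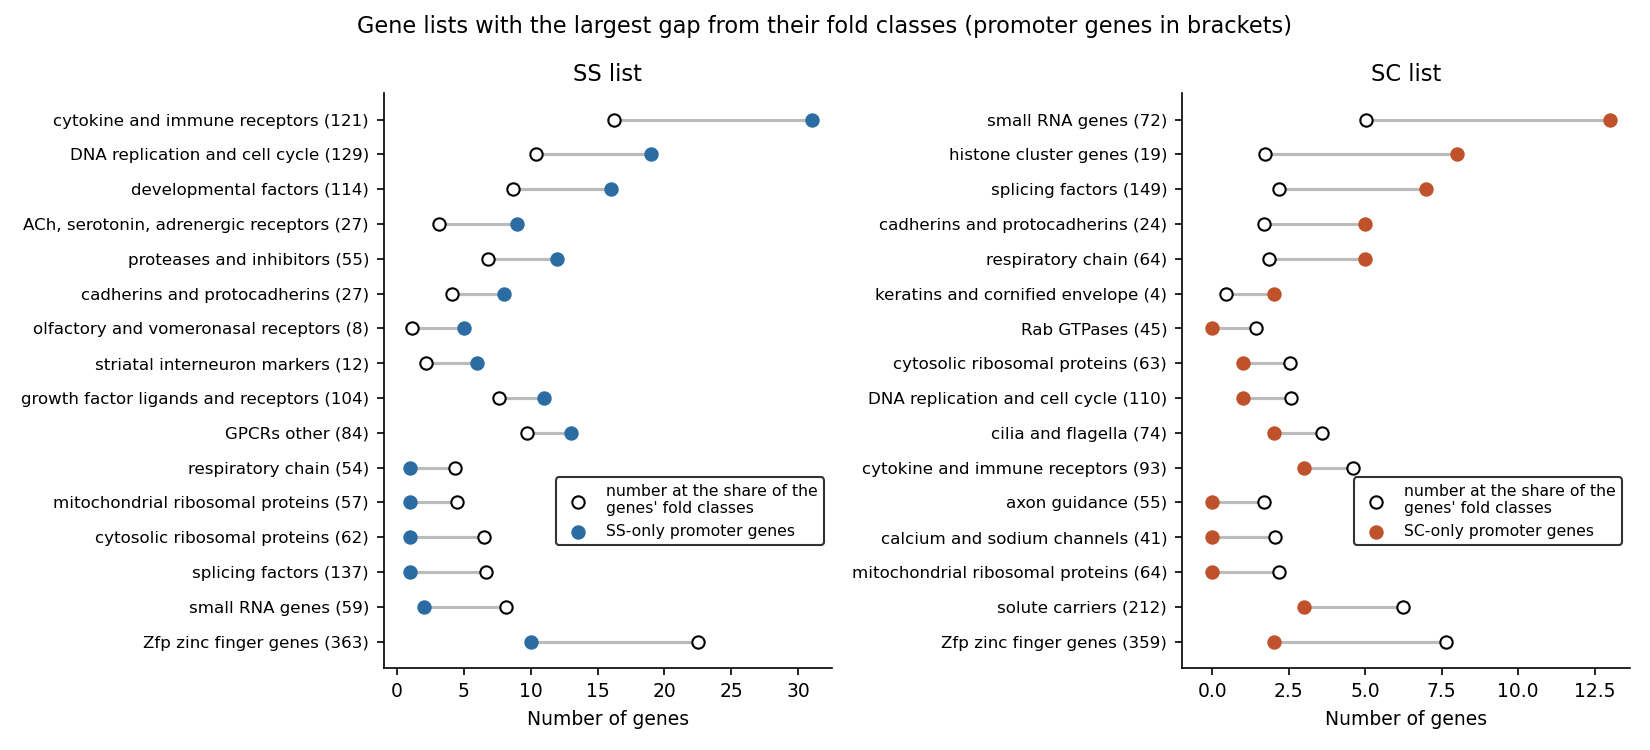
The 16 gene lists with the largest gap between the number of SS-only (left) or SC-only (right) promoter genes (filled points) and the number that the fold enrichment classes of their members would give (open points); the horizontal axis counts genes and brackets give the promoter genes of each list. Immune genes (31 beside 16.2) stand highest in SS, small RNA genes (13 beside 5.01) in SC.

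A change of promoter within a gene was rare. Of 11730 gene names with a promoter peak in both lists, 35 had no overlapping promoter peaks, and for 12 of them the assigned start sites lay more than 1 kb apart. In Mogat1, an acyltransferase, the starts assigned to the SS and the SC peak were 25761 bp apart. Those in Tiam1, an exchange factor for Rac, were 161728 bp apart (fold enrichment 4.16 in SS and 3.28 in SC). In 25 of the 35 genes a peak of the other list lay within 500 bp. Few genes had both a promoter and a gene body call: of the 1126 SS-only promoter genes, 41 (3.64%, 2.63 to 4.91%) held an SC-only gene body peak, among them Dlx2, Foxj1, Aspm and Sox6, against 6.89% of the shared SS promoter genes. An SS-only gene body peak was held by 75 of the 1126 (6.66%, 5.27 to 8.28%), against 4.39% of the shared SS promoter genes. Of the 414 SC-only promoter genes, 21 (5.07%, 3.17 to 7.65%) held an SC-only gene body peak, among them Meis2, Mapk10, Ptk2b and Phactr1, and 15 (3.62%, 2.04 to 5.91%) an SS-only one. The shares among the shared SC promoter genes were not counted, so whether these SC values are high or low is not known.

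Peaks of 1 list also overlapped the CS and CC lists less often, and SC-only peaks least. Shared peaks are by definition called in both SS and SC, and the fold-matched ones were wider. The comparison therefore cannot separate an effect of cocaine history from how readily a peak is called again, and the cause was not tested. The CS and CC lists held 6238 and 4670 peaks on the same chromosomes, and together overlapped 27.8% of SS and 28.0% of SC peaks. They overlapped 344 SS-only peaks (5.84%, 5.25 to 6.46%), against 15.2% of fold-matched shared peaks. Of the SC-only peaks they overlapped 55 (1.3%, 0.982 to 1.69%), against 13.9%. The difference was present in each region. In promoters 11% of 1629 SS-only peaks (fold-matched 23.5%) and 1.98% of 808 SC-only peaks (fold-matched 22.7%) recurred. In gene bodies it was 3.09% (fold-matched 7.26%) and 0.867% (fold-matched 5.27%), and in intergenic sequence 3.70% (fold-matched 10.6%) and 1.21% (fold-matched 7.73%). The CC list, made after cocaine on top of a history, overlapped 28 SC-only peaks (0.663%) and 157 SS-only peaks (2.66%). The CS list, where saline followed the history, overlapped 44 (1.04%) and 246 (4.17%).

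**Figure D5:**
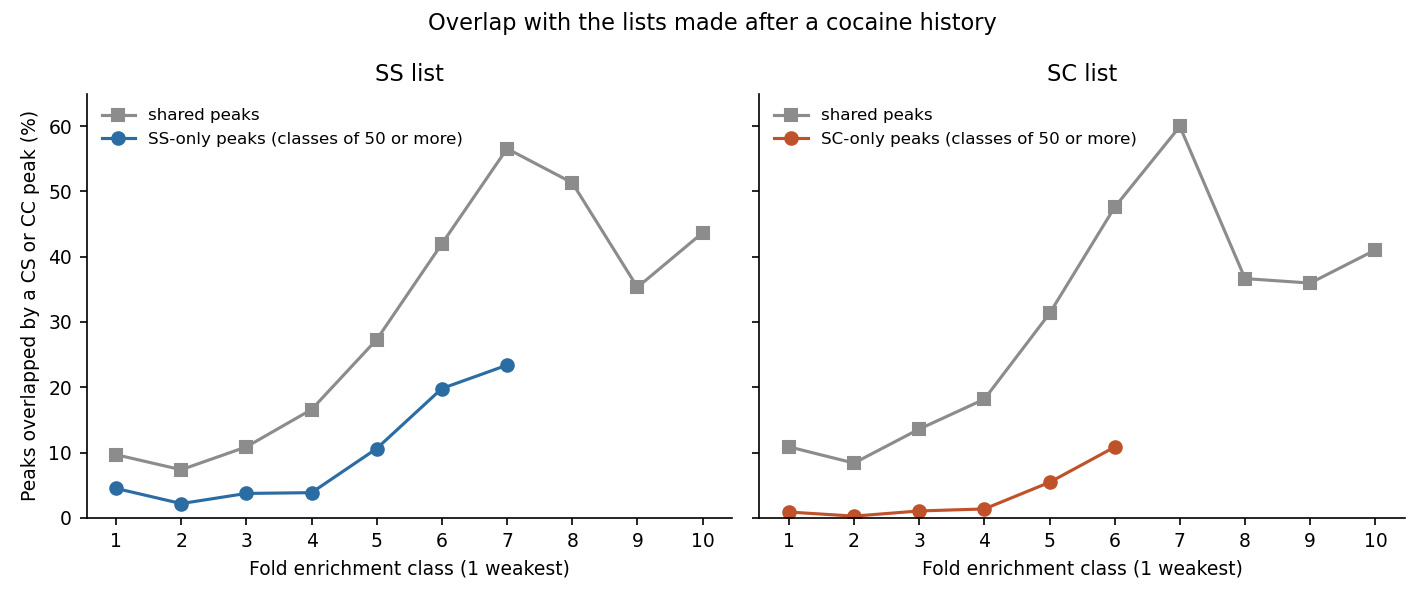
Share of peaks overlapped by a peak of the CS or CC list (vertical axis, %) by fold enrichment class (horizontal axis, 1 weakest) for shared peaks (grey squares) and for SS-only (left) or SC-only (right) peaks (coloured circles, classes of at least 50 such peaks, no error bars). In each class drawn the SS-only and SC-only circles lie below the squares, from 4.51% against 9.67% in the weakest SS class and 0.890% against 10.9% in the weakest SC class.

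No chromosome stood far from the rest. Relative to the number that fold enrichment classes would give, SS-only peaks ranged from 0.875 times on chromosome 7 to 1.12 times on chromosome 13, and SC-only peaks from 0.798 times on chromosome 19 to 1.15 times on chromosome 18. The longest run of neighbouring peaks without a partner was 11 in SS and 10 in SC.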

How the data were processed

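H2A.Z chromatin immunoprecipitation and sequencing of mouse nucleus accumbens was analysed from the authors' annotated peak lists, 1 per condition, each named by 3 samples. Groups were taken from the sample titles. The submitters' processing notes name the mm10 build and cutadapt, HISAT, SAMtools and MACS2. Not given in the sources used here are versions, peak-calling settings and the control. Per the file headers, the deposited values per peak are a fold enrichment (the authors' ratio of signal to background) and a linear q-value. The authors deposited an assigned gene, a region and a signed distance, which equalled the peak middle minus the TSS within 0.5 bp. Depth and the total H3 libraries were not analysed here.

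Chromosomes 1 to 19 were kept. Overlap of at least 1 bp was computed in Python 3.11.15 (pandas 2.3.3, scipy 1.17.1) and checked with bedtools 2.31.1, and the steps were tested on simulated data. Promoter means a distance of at most 1000 bp; flank, gene body and intergenic follow the authors' annotation beyond that. Fold matching reweighted shared peaks, or promoter genes by their strongest promoter peak, to the 10 fold enrichment classes of the 1-list set. Of 14134 promoter gene names, 12967 (91.7%) matched RefSeq GRCm38.p6. Its promoter table, which held no chromosome 18 entry, gave sequences and distances; of matched genes, 72.6% in SS and 72.3% in SC had a RefSeq start within 100 bp of the authors' TSS.

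The members, the 45 gene lists and the rules were chosen with earlier results of these data known. Named by rule were the 15 strongest 1-list promoter genes of each list, the 5 strongest 1-list gene body and intergenic peaks, the 5 strongest shared promoter genes, leading 1-list members of the gene lists, and genes of cocaine and activity responses. Clone names, names starting Gm or ending Rik and pseudogenes were skipped. A few genes that these rules name are not reported here. Fuller member lists of some gene lists, and hosts of several gene body peaks, were added after their values were seen. Alternatives changed the overlap rule (50% of the shorter peak, or a gap of up to 500 bp), the peak threshold (−log10 q of at least 5), the number of peaks (10000 strongest), the promoter distance (500 or 2000 bp), the number of classes (5 or 20) and the gene rule (name alone).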

Additional observations from a re-analysis of the deposited data

How the results depend on the processing

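In every alternative the promoter share and the share recurring in CS or CC were lower in SS-only and SC-only peaks than in fold-matched shared peaks, and the gene body and intergenic shares were higher. With only the 10000 strongest peaks of each list compared with each other, weaker peaks of the other list did not count as partners. There 85.7% of SS and 85.7% of SC peaks were shared, and 1022 promoter genes were SS-only and 988 SC-only. In that setting (fold-matched value in brackets) the promoter share was 77.4% (87.9%) for SS-only and 74.5% (89.4%) for SC-only peaks, the gene body share 7.99% (3.13%) and 7.53% (2.90%), the intergenic share 11.6% (6.5%) and 13.9% (5.58%), and the share in CS or CC 50.2% (58.1%) and 39.3% (64.1%). Counting peaks up to 500 bp apart as shared gave 77.5% shared in SS and 82.9% in SC, promoter shares of 24.0% (47.8%) and 15.5%, gene body shares of 22.6% (16.5%) and 40.6%, an SS-only intergenic share of 46.9% (29.1%), and shares in CS or CC of 5.10% for SS-only peaks and a fold-matched 13.2% for SC. Requiring −log10 q of at least 5 gave 76.3% and 81.9% shared, and fold-matched values of 47.4% and 49.5% (promoter), 16.5% and 16.5% (gene body), 29.6% (SS intergenic) and 16.2% and 14.8% (CS or CC). With an overlap of 50% of the shorter peak, 74.7% and 80.4% were shared. A promoter distance of 500 bp gave promoter shares of 23.2% (38.3%) and 15.1% (40.9%), and 2000 bp gave 31.7% (50.05%) and 23.1% (52.4%). With 5 classes the fold-matched SS promoter share was 46.7% and the CS or CC share 15.9%. By name alone 853 genes were SC-only. The cause of these shifts was not tested, beyond the smaller number of peaks kept in the strongest set.

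Of the named genes, Orc1, Slc31a1 and Rsrc2 were shared when gaps of up to 500 bp counted, Cdx2 was no promoter gene at 500 bp, Dapk3 was no longer SC-only at 2000 bp, and Sf3b4 was not SC-only among the 10000 strongest peaks. No paired analysis was possible because the lists hold no values per sample. For the same reason no setting leaves out a replicate. Depth was not analysed here, so a weak peak missing from a list is a peak not called there.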
